A study of Homo sapiens with 22 samples.

Results

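Weakly active reporters in both lines were 1422 sequence tags whose RNA stood modestly above the plasmid pool in A549 cells and, by about as much, in H520 cells. They were 0.673% of the 211385 tags that had a Depth (raw read count) of at least 100 in both sequenced plasmid pools. Activity was the log2 ratio of RNA TPM plus 0.5 to H520 input TPM plus 0.5, centred on the library's median over the same tags, where TPM is counts of a tag per M counts of its library. A value of 0 is therefore the typical tag of the pool. A tag belonged to the weakly active set when its mean over the 10 A549 RNA libraries and its mean over the 10 H520 RNA libraries were both at least 0.5 and under 1, which is 1.41-fold to 2-fold above the pool level. The activities that chose the tags, and the differences between the lines that follow from them, are given as a description with no test.

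The study transfected luciferase reporters carrying sequence tags into A549, a human lung adenocarcinoma line, and H520, a human lung squamous cell carcinoma line. The groups were A549 with benzo(a)pyrene (BaP), A549 with DMSO, H520 with BaP and H520 with DMSO, with 5 transfections each. BaP was given at 10 µM for 18 h in A549 and for 42 h in H520, so the line and the length of exposure cannot be told apart. Each line had 1 input library of plasmid DNA. The labels do not tie transfections to separate cell cultures, so p-values measure the spread between transfections only.

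In an assay of this kind, a cloned fragment drives transcription of a reporter whose transcript carries the tag, and the ratio of tag RNA to tag DNA is read as the activity of the fragment. Enhancers and promoters recruit transcription factors that differ between cell types, so fragments can be active in a single line or in both. BaP is a polycyclic aromatic hydrocarbon of tobacco smoke. It binds the aryl hydrocarbon receptor, a ligand-activated transcription factor that switches on CYP1A1 and other detoxification genes through xenobiotic response elements with the core GCGTG. The tag lies in the transcript, so its own letters can also bear on RNA processing, stability and amplification.

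Each tag is written with 15 bases, 12 that vary and a fixed 3-base end. As synthetic letters the tags lie nowhere in the genome, and which fragment or allele each one marks was not analysed here. Several tags can mark 1 fragment, so tags are neither independent nor a count of fragments. The following 7 tags, written 5′ to 3′ as deposited, are shown because they carry the pattern most plainly: T1 to T4 were the weakly active tags nearest to an activity of 0.75 in both lines with at least 1000 counts in both inputs, and P1 to P3 were the 3 read most deeply in the inputs. Capitals mark the first 5 bases, in which the weakly active tags held more G and C than the pool.
T1: CGATCgttgctgggc
T2: GGCTAaccggcaggc
T3: GGAGCgtacggtggc
T4: AGTTGaatgcggggc
P1: CAGCGttgcgcgggc
P2: CGGATaccgtttggc
P3: GCGTTactatgcggc

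Tag T2 lay near the middle of the range in both lines. Its activity was 0.88, 0.80, 0.60, 0.66 and 0.70 in the A549 BaP transfections 1 to 5, against 0.84, 0.75, 0.75, 0.71 and 0.67 in the A549 DMSO transfections. In H520 it was 0.68, 0.86, 0.76, 0.75 and 0.64 with BaP, against 0.72, 0.80, 0.78, 0.78 and 0.64 with DMSO. All 20 values lay within the range that defines the set, and neither the treatments nor the lines separated. Its abundance averaged 20.6 ± 2.43 TPM in A549 BaP and 21.0 ± 1.36 TPM in A549 DMSO (SD, n = 5 each), above 14.4 TPM in either input. The 4 tags T1 to T4 had means of 0.73 to 0.74 in A549 and of 0.74 to 0.76 in H520.

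Tag P1, with 10392 counts in the A549 input and 8699 in the H520 input, was the most deeply read. Its activity was 0.87, 0.76, 0.55, 0.55 and 0.59 in A549 BaP transfections, against 0.74, 0.80, 0.78, 0.60 and 0.60 in A549 DMSO transfections. In H520 it was 0.74, 0.83, 0.78, 0.88 and 0.70 with BaP, against 0.68, 0.86, 0.84, 0.85 and 0.74 with DMSO. The A549 values of P1 spread more than its H520 values, and the treatments overlapped in both lines. P2 averaged 0.73 in A549 and 0.66 in H520, and P3 averaged 0.63 in A549 and 0.88 in H520. P3 was at 0.75, 0.73, 0.61, 0.51 and 0.47 in A549 BaP, against 0.64, 0.70, 0.73, 0.60 and 0.56 in A549 DMSO. In H520 it was at 0.79, 0.95, 0.79, 0.95 and 0.85 with BaP, against 0.82, 0.94, 0.87, 0.97 and 0.88 with DMSO. Every H520 value of P3 lay above every A549 value, so that this deep tag met the rule at unequal levels. Over the A549 input its H520 mean was 1.16, outside the range.

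Across the set, the median activity was 0.66 in A549 and 0.65 in H520, which is 1.58-fold and 1.57-fold above the pool. Values crowded toward the lower limit. In 707 of the 1422 tags both means were under 0.75, in 291 only the A549 mean was at 0.75 or more, in 275 only the H520 mean was, and in 149 both were. The A549 minus H520 difference ran from -0.45 to 0.46 with a median of 0.01, and 620 tags had means within 0.1 of each other. The A549 mean was the higher in 766 tags and the H520 mean in 656.

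The A549 libraries all lay above the H520 libraries in 95 weakly active tags, or 6.68%, against a background of 15.6% of all tags. The H520 libraries all lay above the A549 libraries in 74, or 5.20%, against a background of 15.4%. The rule caps the difference between the lines, so these shares could not be large and nothing is read from them. Across the set, the A549 and H520 means had a Pearson r of 0.0984 over 1422 tags that share 1 denominator, a description only.

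Single libraries mostly stayed near the means that chose the tags. In 1417 of the 1422 tags all 20 RNA libraries were above the pool level of 0. The rule had used the means of these same libraries, so that count was largely fixed in advance and nothing is read from it. All 20 were at 0.5 or more in 395 tags, and all 20 lay between the limits in 184. No weakly active tag was at 0 counts in any library, and the lowest count in any RNA library was 96. A single A549 library placed between 1068 and 1294 of the tags in the range, and a single H520 library between 1112 and 1235.

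RNA libraries held 177.6 to 371.4 M counts, and the inputs held 333.5 M for A549 and 265.8 M for H520. The median weakly active tag had 1608.5 counts in the A549 input and 1072 in the H520 input, against 1284 and 1031 for all 211385 tags. Its count in an RNA library was between 1112.5 and 2358.5. No molecular identifiers are described, so any interval from counts covers counting error only.

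The spread over libraries narrowed with depth. The median SD of activity over the 10 A549 libraries was 0.12 for the 268 weakly active tags whose lower input Depth was 100 to 500, 0.11 for 386 tags of 500 to 1000, 0.097 for 446 tags of 1000 to 2000 and 0.091 for 322 tags of 2000 or more. Over the 10 H520 libraries it was 0.12, 0.098, 0.085 and 0.070 in the same order. Counting error at the median RNA count of these depth classes is 0.064, 0.045, 0.033 and 0.023 log2 units, which is below the median SD of either line in every class. The weakly active tags spread about as much as all tags, whose median SD was 0.10 in both lines.

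Replicate libraries ordered the tags in a similar but not identical way. Pairs of libraries within a group had a Pearson r across the 1422 tags of 0.54 to 0.74 in A549 BaP, 0.39 to 0.82 in A549 DMSO, 0.56 to 0.78 in H520 BaP and 0.55 to 0.75 in H520 DMSO. Every pair of replicate libraries differed by more than counting error, with a chi-square of 3.72 to 90.4 per degree of freedom. Libraries of different lines had an r between -0.064 and 0.19. Tags share the library and the denominator in these values, and the narrow range of the rule limits r.

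A few tags varied much more than the rest. Among tags with at least 500 counts in both inputs, SA1 and SA2 had the greatest SD over A549 libraries and SH1 the greatest over H520 libraries, with the first 5 bases in capitals.
SA1: AGCGCgttaagtggc
SA2: GCAGCgccatctggc
SH1: GGCATctaagatggc
SA1 had an activity of 0.04, 0.14, 0.84, 0.66 and 1.02 in A549 BaP transfections 1 to 5, against 0.57, 0.13, 0.39, 0.68 and 0.90 in A549 DMSO transfections. It was near the pool level in 3 of the 10 A549 libraries, whereas in H520 it kept between 0.54 and 0.78. SA2 was low in A549 DMSO transfection 3 alone, at -0.08, while its other A549 values lay between 0.58 and 0.87. SH1 was low in H520 DMSO transfection 4 alone, at -0.23, while its other H520 values lay between 0.54 and 0.89. The class therefore includes tags whose mean hides 1 or a few libraries far from the others.

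The tags at the limits show how thin the borders are. L1 (GGATGctcgtttggc) averaged 0.69 in A549 and 0.50002 in H520, just inside, and NL1 (CTTCCgacgacgggc) averaged 0.63 and 0.4999, just outside. U1 (CATTGacttaccggc) averaged 0.9996 in A549 and 0.93 in H520, just inside, and NU1 (GGAATtcgagccggc) averaged 1.001 and 0.65, just outside. In all, 481 weakly active tags had a mean within 0.05 above the lower limit and 104 within 0.05 under the upper limit. Another 658 tags missed the lower limit and 89 the upper limit by no more than 0.05. These gaps are smaller than the typical SD between transfections.

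Membership was partly carried over between treatments. A set chosen by the same limits on the 10 DMSO libraries alone held 1402 tags, and 1102 of them, or 78.6%, were in range in both lines in the BaP libraries, which took no part in that choice except through the shared input. A further margin of 0.1 around the limits took in 1373, or 97.9%. Chosen on the 10 BaP libraries alone, 1441 tags qualified, of which 1102, or 76.5%, were in range in the DMSO libraries and 1408, or 97.7%, within the margin. Tags that left the range between treatments thus mostly left it by less than 0.1.

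The denominator mattered far more. With the A549 input in place of the H520 input, 501 of the 1422 tags, or 35.2%, were still in range in both lines, while 1937 of all 211385 tags, or 0.916%, were in range with that input. Of the others, 875 had a mean under 0.5 in at least 1 line and none at 1 or above, and 46 had a mean at 1 or above. Both means were under 0.5 in 546. The median activity over the A549 input was 0.51 in A549 and 0.49 in H520. Direction was kept more often than class, since 1356 tags, or 95.4%, stayed above 0 in both lines. The RNA values were those that the rule had placed at 0.5 or more, so few tags could fall below 0 and little is read from this share.

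The loss followed the ratio of the 2 inputs. The log2 ratio of H520 input to A549 input, each as TPM plus 0.5, had a median of -0.17 in the weakly active tags, with quartiles of -0.32 and -0.02, against a median of 0.01 in all tags. It was below 0 in 1111 weakly active tags, or 78.1%, against 48.7% of all tags. Of the 398 weakly active tags with a ratio below -0.3, 1 was still in range over the A549 input. The number was 52 of 360 from -0.3 to -0.15, 184 of 353 from -0.15 to 0, 200 of 218 from 0 to 0.15 and 64 of 93 above that. A low value in the H520 input raises both activities by construction, and because each input is 1 library, its own error could not be estimated.

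The same dependence shows from the side of the whole pool. Weakly active tags made up 1.42% of tags with a ratio below -0.3, 1.16% from -0.3 to -0.15, 0.808% from -0.15 to 0, 0.5001% from 0 to 0.15 and 0.143% above 0.15. With the A549 input as denominator the order turned round, and tags in range made up 0.135%, 0.299%, 0.476%, 0.695% and 1.996% of the same classes. Each input enters the activity as its denominator, so the direction of both orders follows by construction. Tags that were moderately active in both lines, with means from 1 to 2, had a median ratio of -0.08. Those near the pool level, within 0.5 of 0 in both lines, had a median of 0.01.

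The ratio differed from tag to tag by more in shallow tags. Its SD among the weakly active tags was 0.27 where the lower input Depth was 100 to 500 and 0.16 where it was 2000 or more. The share of tags in range over both inputs was 22.4% in the first of these classes, 30.3% from 500 to 1000, 34.5% from 1000 to 2000 and 52.8% at 2000 or more. Even among the 322 deepest tags, then, 170 kept the class with both inputs and the others did not.

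Single tags show the size of the shift. I1 and I2 had the highest ratios of H520 input to A549 input among weakly active tags with at least 500 counts in both inputs, and J1 and J2 the lowest, with the first 5 bases in capitals.
I1: GGCTGacgcggcggc
I2: GTTAGtttagccggc
J1: GATTGcgtagggggc
J2: CCGATtcgtacgggc
J1 had 7.27 TPM in the A549 input and 4.12 TPM in the H520 input. Over the H520 input its activity was 0.80 in A549 and 0.95 in H520, but over the A549 input it was 0.05 and 0.19. Its RNA held 6.92, 7.04, 6.09, 5.91 and 6.04 TPM in the A549 BaP transfections, against 6.62, 6.87, 6.90, 6.24 and 5.83 TPM in A549 DMSO. In TPM, before any centring, its A549 RNA was thus never above its A549 input level. Centred on the library median, its A549 mean was the 0.05 given above. I1 had 3.26 TPM in the A549 input and 4.61 TPM in the H520 input, and its activities of 0.64 in A549 and 0.95 in H520 became 1.07 and 1.38 over the A549 input. Among the tags shown first, T2 had 14.4 TPM in either input and moved by about 0.01. T1 went from 0.74 in both lines to 0.52 in both over the A549 input. T3 went from 0.74 in A549 and 0.76 in H520 to 0.38 and 0.40. T1, T2, T4, P1 and P2 thus stayed in range over the A549 input, and T3 and P3 did not.

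With each line set against its own input, 716 of the 1422 tags, or 50.4%, were in range in both lines. The number of tags in the A549 range was 13882 over the H520 input and 6586 over the A549 input, and 4842 tags were in the H520 range over the H520 input. With the shared H520 input, the 1422 tags in both ranges were 10.2% of the A549 list, against 2.29% of all tags in the H520 range. They were 29.4% of the H520 list, against 6.57% of all tags in the A549 range. With own inputs, 1182 tags were in both, which is 17.9% of the A549 list, against the same 2.29% of all tags. They were 24.4% of the H520 list, against 3.12% of all tags in the A549 range. Both the overlap and the background for the A549 range thus changed with the plasmid library used as the reference.

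The letters of the tags, which the rule did not use, differed from the pool mostly near the 5′ end and at the last varying base. In the first 5 bases G and C made up 57.2% of letters in the weakly active tags, against 50.8% in tags moderately active in both lines, 48.4% in tags near the pool level and 48.4% in all tags. In the other 7 varying bases the share was 48.2% in the weakly active tags and 47.3% in all tags. At least 4 of the first 5 bases were G or C in 376 weakly active tags, or 26.4%, against 16.6% of all tags. By position, the G and C share was 58.9%, 58.5%, 57.4%, 56.3% and 54.8% at bases 1 to 5 of the weakly active tags, against 53.0%, 45.8%, 45.8%, 48.2% and 48.9% in all tags. At bases 6 and 7 it was 50.5% and 51.9%, against 47.9% and 47.4%. From base 8 on the summed G and C share was within 3 percentage points of all tags, but at bases 10 and 12 its parts were not. At base 10 G made up 26.7% of letters in the weakly active tags, against 23.2% in all tags. At base 12 C made up 30.5%, against 24.4% in all tags, and G made up 20.1%, against 25.4%. In the tags in range over the A549 input, C made up 33.6% at that base. Tags T3 and P1, GGAGCgtacggtggc and CAGCGttgcgcgggc, are examples with such a start.

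The first 2 letters divided the pool further. Weakly active tags were 0.996% of tags that begin with gg, 0.987% of those with tg, 0.962% of those with cc and 0.884% of those with gc. They were 0.364% of those that begin with ta and 0.470% of those with at.

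The composition was much the same with either input. The G and C share of the first 5 bases was 56.1% in the 501 tags in range over both inputs and 55.1% in the 1937 tags in range over the A549 input. The median ratio of the inputs lay between 0.01 and 0.03 in every class of tags with 2 to 10 G or C among the 12 varying bases. The share of weakly active tags in these classes nevertheless went up from 0.179% (4 of 2229) at 2 bases to 0.738% (390 of 52872) at 6 and 1.60% (10 of 624) at 10. The median activity of all tags was -0.15 in A549 and -0.32 in H520 at 2 bases, 0.03 in A549 and 0.13 in H520 at 9, and 0.00023 in A549 and 0.14 in H520 at 10. In single A549 libraries the median at 9 bases minus that at 3 was above 0 in 7 of 10, and it was -0.072 in BaP transfection 4, -0.055 in DMSO transfection 3 and -0.089 in DMSO transfection 4. When the median was subtracted within each of these classes in place of once per library, 1318 tags were in range, among them 1066 of the 1422, or 74.96%. Whether the letters of the tag contribute to the measured activity was not tested, since tags of the same fragment could not be compared.

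Short motifs were rare in the tags, whose last 3 letters were searched as well. The search covered both strands for the polyadenylation hexamer AATAAA with its variant spelled ATTAAA, the xenobiotic response element core GCGTG, the AP-1 site TGANTCA, the E-box CACGTG, the AU-rich pentamer ATTTA, and the Pumilio site TGTANATA. The AP-1 site and the E-box read the same on both strands, and ATTTA can share letters with ATTAAA on the reverse strand. GCGTG was found only on the strand as listed, in the weakly active tags and in the whole pool. GCGTG occurred in 4 weakly active tags (0.281%), against 0.568% of all tags, and ATTAAA in 1 (0.0703%), against 0.498%. TGANTCA occurred in 2 (0.141%), against 0.0624%, and ATTTA in 20 (1.41%), against 2.12%. The hexamer AATAAA, the E-box and the Pumilio site occurred in 0 of the tags of either set. The whole pool held none of these and no reverse-strand GCGTG, so these absences among the weakly active tags were fixed in advance. The deepest weakly active tag with each motif is given here with the motif in capitals, on the reverse strand in M1 and M4.
M1: ccgTTTAATcatggc
M2: tgagatacGCGTGgc
M3: TGACTCAtggtcggc
M4: TAAATcgactagggc
M2, with the GCGTG core, had an activity of 0.90, 1.04, 0.89, 0.71 and 0.66 in A549 BaP transfections, against 0.82, 0.76, 1.01, 0.82 and 0.75 in A549 DMSO. M3, with the AP-1 site, was at 0.66, 0.63, 0.71, 0.75 and 0.65 in A549 BaP, against 0.69, 0.63, 0.71, 0.78 and 0.64 in A549 DMSO. In both tags the BaP and DMSO values overlapped. In M2 the last G of the core belongs to the fixed 3-base end. A match is a run of letters in a tag and no evidence that a factor acts there.

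Tags that differ by 1 letter allow a check of how weak signals relate to their neighbours in sequence. The weakly active tags had a median of 4 other tags 1 base away, as did all tags. A neighbour with a mean of 2 or more in either line was present for 43 weakly active tags, or 3.02%, against 3.32% of all tags. A neighbour that was itself weakly active was present for 77, or 5.41%, against 2.47% of all tags. The 3 deepest such pairs are shown with the differing base in capitals.
R1x1: Agattgcgaaagggc
R1x2: Tgattgcgaaagggc
R2x1: taccgcccaacCggc
R2x2: taccgcccaacTggc
R3x1: cgccatctaAgcggc
R3x2: cgccatctaTgcggc
The pairs differ by A1T, C12T and A10T, counted from 1 at the 5′ end of the tag as listed. R1x1 averaged 0.70 in A549 and 0.81 in H520, and R1x2 averaged 0.76 and 0.88. R3x1 averaged 0.54 in A549 and 0.86 in H520, and R3x2 averaged 0.54 and 0.98. R3x1 was at 0.69, 0.60, 0.54, 0.38 and 0.41 in A549 BaP, against 0.55, 0.57, 0.53, 0.51 and 0.59 in A549 DMSO. R3x2 was at 0.69, 0.60, 0.48, 0.38 and 0.42 in A549 BaP, against 0.58, 0.66, 0.47, 0.60 and 0.48 in A549 DMSO. Both tags were highest in BaP transfection 1 and lowest in BaP transfection 4, but in DMSO R3x1 was highest in transfection 5 and R3x2 in transfection 2. R2x1 and R2x2 were close in A549, at 0.58 and 0.55, but averaged 0.60 and 0.80 in H520. In H520, R2x2 was at 0.74, 0.93, 0.80, 0.85 and 0.75 with BaP, against 0.72, 0.84, 0.79, 0.85 and 0.75 with DMSO. R2x1 was at 0.52, 0.56, 0.55, 0.57 and 0.54 in H520 with BaP, against 0.69, 0.59, 0.69, 0.59 and 0.74 with DMSO. The H520 values of R2x1 did not overlap between treatments, with a log2 fold change of -0.12 and an SE of 0.045, but the Benjamini-Hochberg adjusted p of edgeR's quasi-likelihood test, described with the BaP results, was 0.998. Over the A549 input, R2x2 was in range in both lines, at 0.54 and 0.78, and R2x1 was not, at 0.27 and 0.29. With that input R3x1 averaged 0.26 in A549 and 0.58 in H520, and R3x2 averaged 0.58 and 1.01. Neither R3x1 nor R3x2 was thus in range in both lines, and they were no longer equal in A549. R1x1, at 0.54 and 0.64, and R1x2, at 0.59 and 0.71, stayed in range. Whether the members of a pair mark the same fragment was not analysed here.

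Of the 1422 weakly active tags, 9 lay 1 base from a tag with a mean of 4 or more, against 1338 of all 211385 tags, the same proportion. The deepest was V1, which differs from its neighbour VN1 by T4A, with that base in capitals.
V1: catTcgctatctggc
VN1: catAcgctatctggc
VN1 averaged 5.52 in A549 and -0.33 in H520, whereas V1 averaged 0.73 in A549 and 0.71 in H520. The A549 RNA of VN1 held 188, 179, 146, 165 and 126 TPM with BaP, against 194, 162, 156, 175 and 148 TPM with DMSO. That of V1 held 26.7, 24.8, 24.1, 23.1 and 22.8 TPM with BaP, against 25.6, 26.0, 27.5, 25.6 and 23.7 TPM with DMSO. V1 was as active in H520, where VN1 was below the pool level, as in A549, where VN1 was 45.9-fold above it. That fold is over the H520 input, where VN1 had 3.64 TPM, against 7.18 TPM in the A549 input. Over the A549 input VN1 averaged 4.62 in A549 and -1.23 in H520, and V1 averaged 0.61 and 0.58.

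The effect of BaP was tested with edgeR's quasi-likelihood test on the counts of all tags with Benjamini-Hochberg adjustment, since the rule had not used this contrast. In A549 no tag passed an adjusted p of 0.05, either among the 1422 weakly active tags or among all 223066 tested (0%). At an unadjusted p under 0.05 there were 35 weakly active tags, or 2.46%, against 2.6% of all tags. Of these, 15 were higher with BaP (1.05%, against 1.18% of all tags) and 20 lower (1.41%, against 1.42%). The median log2 fold change was -0.0067 in the weakly active tags and -0.0013 in all tags, and the middle 95% of the weakly active tags lay between -0.15 and 0.14. DESeq2 also called none, with 30 at an unadjusted p under 0.05, or 2.11%, against 2.96% of all tags. The edgeR count was 19 without A549 BaP transfection 2 (1.34%, against 1.93% of all tags) and 17 without A549 DMSO transfection 3 (1.20%, against 2.09%).

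The median activity of the weakly active tags was 0.74, 0.73, 0.64, 0.63 and 0.60 in the A549 BaP transfections, against 0.67, 0.71, 0.71, 0.67 and 0.63 in the A549 DMSO transfections. The means were 0.67 ± 0.06 with BaP and 0.68 ± 0.03 with DMSO (SD, n = 5 each), so that the difference of -0.0067 was well within the spread. The levels ran opposite to those of tags that were strongly active in A549 but not in H520. The 658 tags with an A549 mean of 2 or more and an H520 mean under 1 averaged 2.34, 2.57, 3.16, 3.25 and 3.39 in A549 BaP and 3.05, 2.39, 2.54, 3.10 and 3.26 in A549 DMSO. The weakly active tags were at their 2 highest levels with BaP, and at their 2 highest with DMSO, in the transfections where those tags were at their lowest. The part of this in the result was not tested.

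The smallest p in A549 belonged to BA1 (AGCGCagcgatgggc, first 5 bases in capitals). Its activity was 0.95, 1.11, 0.77, 0.84 and 0.76 with BaP, against 0.66, 0.67, 0.41, 0.69 and 0.60 with DMSO, and the groups did not overlap. Its log2 fold change was 0.34 with an SE of 0.091, and edgeR's adjusted p was 0.9999 from an unadjusted p of 0.00131. In H520 the fold change of BA1 was -0.13.

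In H520 the edgeR fit without transfection numbers called no tag at the adjusted threshold, among the weakly active tags or all 223732 tested (0%). Fitted with those numbers, which the labels do not pair, it called 1 weakly active tag, lower with BaP. Among all 223732 tags that fit called 86 higher and 64 lower. At an unadjusted p under 0.05 there were 117 weakly active tags, or 8.23%, against 4.71% of all tags. They were mostly higher with BaP, with 90 higher (6.33%, against 2.36% of all tags) and 27 lower (1.90%, against 2.35%). DESeq2 called 0 of the 471 weakly active tags to which it gave an adjusted p, and 11 of 19911 over the whole pool, 5 higher and 6 lower with BaP. At an unadjusted p under 0.05 it placed 108 weakly active tags, or 7.59%, against 5.05% of all tags. The fold changes behind these counts were small, with a median of 0.015 on the log2 scale, against -8.5e-05 in all tags, and with 841 of 1422 above 0, or 59.1%, against 49.95% of all tags. Without H520 DMSO transfection 3 the edgeR count was 75, or 5.27%, against 4.62% of all tags, and 45 of them were higher with BaP.

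The library levels showed the same small offset. The median activity of the weakly active tags was 0.67, 0.67, 0.64, 0.68 and 0.66 in the H520 BaP transfections, against 0.66, 0.67, 0.63, 0.67 and 0.64 in the H520 DMSO transfections. The means were 0.664 ± 0.016 with BaP and 0.654 ± 0.019 with DMSO (SD, n = 5 each), and the difference of 0.0097 was smaller than either SD. Each SD is over single transfections, so it does not test this difference of means. With BaP the level was the higher in 4 of 5 transfection numbers, against 2 of 5 in A549, though the labels do not pair the numbers. Transfection 3 was the lowest in both treatments. The share of all counts taken by the weakly active tags was 1.22% ± 0.0132 with BaP and 1.20% ± 0.0128 with DMSO in H520, and 1.09% ± 0.107 with BaP and 1.10% ± 0.0711 with DMSO in A549. The level of the weakly active tags was therefore steadier over the H520 transfections than over the A549 ones.

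The smallest p in H520 belonged to BH1 (CTAATccaagatggc, first 5 bases in capitals). Its activity was 0.82, 0.80, 0.68, 0.66 and 0.78 with BaP, against 0.50, 0.57, 0.49, 0.58 and 0.71 with DMSO. The groups overlapped through DMSO transfection 5. Its log2 fold change was 0.19 with an SE of 0.053, and edgeR's adjusted p was 0.998 from an unadjusted p of 0.000796. In A549 the fold change of BH1 was 0.01.

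The difference between the BaP responses of the lines was tested as the line by treatment interaction, A549 minus H520. With edgeR it passed the adjusted threshold for none of the weakly active tags and none of the 222669 tags tested (0%). At an unadjusted p under 0.05 there were 55 weakly active tags, or 3.87%, against 3.45% of all tags. Of these, 12 were positive (0.844%, against 1.65% of all tags) and 43 negative (3.02%, against 1.81%). DESeq2 called none, with 54 at an unadjusted p under 0.05, or 3.80%, against 3.85% of all tags. The median interaction was -0.022 in the weakly active tags, against -0.00017 in all tags. Exposure times differed between the lines, so a difference of line and one of time could not have been told apart.

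The smallest interaction p belonged to BI1 (CCCTAataagtcggc, first 5 bases in capitals), a shallow tag with 391 counts in the A549 input and 141 in the H520 input. Its activity was 0.68, 0.55, 0.84, 0.67 and 0.49 in A549 BaP, against 0.62, 0.73, 1.28, 0.95 and 0.77 in A549 DMSO. In H520 it was 0.58, 0.84, 0.42, 0.66 and 0.85 with BaP, against 0.44, 0.58, 0.42, 0.42 and 0.42 with DMSO. The groups overlapped in both lines. The log2 fold change was -0.36 in A549 and 0.34 in H520, and the interaction of -0.70 with an SE of 0.21 had an adjusted p of 0.9999 with edgeR. Over the A549 input BI1 was at the pool level, with means of 0.05 in A549 and -0.15 in H520.

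Fold changes of the weakly active tags were close together. The middle 95% of their fold changes lay between -0.14 and 0.17 on the log2 scale in H520, close to the range in A549. Limited to the 501 tags in range over both inputs, the median fold change was -0.011 in A549 and 0.016 in H520, and edgeR again called none.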

How the data were processed

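Tag amplicons from polyadenylated RNA and from plasmid DNA were sequenced, per the labels' protocols, in 20 RNA libraries and 2 inputs. Per the file headers, each deposited file gives a raw read count per tag (Depth), the library total, and the TPM that the authors made by dividing the count by that total. The submitters' processing notes name bcl2fastq. The matching of reads to tags was not given in the sources used here, and no table pairing tags with fragments or alleles was used here.

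Libraries were joined on the tag, over 238017 tags, with 0 where a tag was not listed. Activity, the input minimum of 100 and the limits of 0.5 and 1 are described with the results. BaP was compared with DMSO by edgeR 4.0.16 (quasi-likelihood, TMM normalization, robust dispersions, limma 3.58.1, R 4.3.3) on the 10 RNA libraries of a line, or on all 20 for the interaction, over tags with at least 10 counts in each input concerned, and adjusted over all tags tested by Benjamini-Hochberg at 0.05. The fits were tested on simulated data. DESeq2 1.42.0, other filters, normalizations, denominators, pseudocounts and left-out transfections were tried as alternatives. Python 3.11.15, pandas 2.3.3 and numpy 2.4.6 made the other values.

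Tags named were the 4 weakly active tags nearest to 0.75 in both lines, the 3 deepest, those nearest the limits, those of extreme input ratio or spread, the smallest p of each test, the deepest 1-base pairs, the deepest next to a very active tag, and the deepest with each motif. The weakly active set, the limits and the motif list were chosen with earlier results of these data known. Depth was 177.6 to 371.4 M counts per RNA library.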

Additional observations from a re-analysis of the deposited data

Results flagged for a closer look

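Of 64 groups of 5 transfections that were searched for a single value far from the others, 5 held one, where chance marks about 1 in 20 groups, and SA2, SH1 and BI1 had been named for their spread or their small p. SA2 was at -0.077 in A549 DMSO transfection 3, and the next value of that group was 0.58. SA2 was also lowest in A549 BaP transfection 4, at 0.66 with the next value at 0.81, and in H520 BaP transfection 1, at 0.32 with the next value at 0.54. SH1 was at -0.23 in H520 DMSO transfection 4, and the next value was 0.54. BI1 was at 0.58 in H520 DMSO transfection 2, and the next value was 0.44.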

How the results depend on the processing

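The input library and the centring moved the results most. The number of weakly active tags was 533 with no median subtracted and 501 when both inputs had to place a tag in range, and lay between 1021 and 1992 with other denominators, pseudocounts, input minimums, G and C centring or 1 treatment alone. The median activity in A549 BaP, A549 DMSO, H520 BaP and H520 DMSO was 0.51, 0.51, 0.50 and 0.48 over the A549 input, 0.59, 0.60, 0.58 and 0.57 over the mean of the inputs, 0.74, 0.75, 0.74 and 0.72 with a pseudocount of 0.1, 0.60, 0.60, 0.60 and 0.59 with a pseudocount of 1, and 0.44, 0.46, 0.58 and 0.57 with no median subtracted. Over its own input it was 0.51 in A549 BaP and 0.51 in A549 DMSO. With centring by G and C class it was 0.65 in H520 BaP and 0.63 in H520 DMSO, and in the tags in range over both inputs 0.73 and 0.72. Leaving out 1 transfection at a time gave 1386 to 1429 tags, medians of 0.65 to 0.69 in A549 BaP, 0.67 to 0.69 in A549 DMSO, 0.66 to 0.67 in H520 BaP and 0.65 to 0.66 in H520 DMSO, and 0 weakly active tags called for BaP in either line or for the interaction.

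The transfection numbers were not taken to pair BaP with DMSO samples, because the labels do not pair them. Whether samples of the same number shared a culture or day was not tested, and the H520 calls depended on this choice. Deviations of samples with the same number had correlations of -0.015 to 0.49 in A549 and 0.044 to 0.16 in H520, and 5 of 10 A549 and 9 of 10 H520 samples correlated best with their own number. With the replicate block, edgeR called 0 weakly active tags in A549 and for the interaction and 1 in H520, where it called 86 tags higher and 64 lower among all 223732 tags. Weakly active tags at an unadjusted p under 0.05 with the block were 65 in A549 (4.57%, against 3.998% of all tags), 180 in H520 (12.7%, against 6.15%) and 92 for the interaction (6.47%, against 4.81%). The 1 tag, chosen after its values were seen, was K1 (TGCGTacgtccaggc), with 29.4 ± 1.18 TPM with BaP and 32.7 ± 2.14 TPM with DMSO, and it was lower in 5 of 5 numbers (log2 fold change -0.15 ± 0.029 SE, adjusted p = 0.0152 with the block and 0.998 without). The share of weakly active tags in range over both inputs was 22.4% at a lower input Depth of 100 to 500 and 52.8% at 2000 or more, and each input was sequenced once.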
